A study of Mus musculus with 68 samples.

Results

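The E2f genes encode transcription factors that time the entry of cells into DNA synthesis, and 6 of the 18088 genes in the deposited table carry the names E2f1 to E2f6. They were found by gene symbol, through the Ensembl identifiers of the table, and the set was selected on a measured value, the higher E2f2 of the mutant libraries in this table, and because E2f6 is a known repressor of germ line genes. The level of E2f2 in mutant against wild-type libraries is therefore given as a description with no test, while the other 5 members, and all 6 under drug, were tested. The remaining E2f genes of the table, E2f7 and E2f8, were used for comparison.

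The libraries are RNA-seq of the prefrontal cortex of C57BL/6J mice on postnatal day 25, from males and females that were wild-type (WT) or heterozygous for Adnp (HT), a gene for a zinc finger and homeodomain protein that works in chromatin complexes. Mice received fluoxetine, a serotonin reuptake inhibitor, lithium, a mood stabiliser, or vehicle for 3 weeks, from day 3 to day 24, through the milk of the mother. There were 16 HT and 15 WT vehicle libraries, 10 and 10 with fluoxetine, and 9 and 8 with lithium, 68 in all. The labels do not describe the mutant allele beyond calling it heterozygous, and they do not say whether libraries of a group came from separate litters, so p-values measure the spread between these libraries.

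E2f proteins bind DNA as dimers with a Dp partner, encoded by Tfdp1 and Tfdp2. The pocket proteins are Rb1, Rbl1 and Rbl2. E2f1, E2f2 and E2f3 are known as activators of genes for DNA replication, and mainly Rb1 holds them in check until cyclin-dependent kinases release them. E2f4 and E2f5 mainly repress together with Rbl1, Rbl2 and the MuvB core, and E2f6 does not bind pocket proteins and represses within the Polycomb complex PRC1.6, whose known targets are genes of the germ line and of meiosis. Most cortical neurons have left the cell cycle by the age studied here, while oligodendrocyte precursors still divide.

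Recovered reads ranged from 22356015 to 37534435 per library. The libraries were clustered by the levels of 361 pseudogenes and cut into 3 sets, a number given to the method and not found by it. No label describes this split. Every fluoxetine library fell in set 1 with 8 of the HT vehicle group (28 in all), and every lithium library in set 2 with 6 HT and 5 WT from the vehicle arm (28 in all). Set 3 had the other 12, namely 10 WT vehicle libraries and 2 HT vehicle males. Vehicle and lithium can therefore be compared within set 2, and the genotypes within set 2 under vehicle and lithium and within set 1 under fluoxetine, while fluoxetine and vehicle in WT cannot be told apart from the sets. The 6 markers of cortical excitatory neurons summed to normalized counts of 45411 to 75378 per library and none was at 0. Markers of neighbouring regions varied more, from 202.3 to 20862 for the olfactory bulb list. Adnp itself did not check the genotype label, since the labels name no deleted region and its normalized count was higher in HT vehicle than in WT vehicle libraries by a log2 difference of 0.32 (limma, adjusted p = 0.0021).

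The promoters of 3 members are shown because E2f genes are themselves known targets of E2f proteins, and because E2f2 separated the genotypes and E2f3 and E2f6 did not. Each window is from RefSeq on GRCm38.p6, holds 250 bases before and 50 bases after the annotated start, and is written along the strand of the gene. Capitals mark matches, on either strand, to the 8-letter E2f motifs TTTGGCGC, TTTGCCGC, TTTCGCGC and TTTCCCGC and to the shorter GCGGGA, which can overlap them.
E2f2, chr4:136172024-136172323, plus strand: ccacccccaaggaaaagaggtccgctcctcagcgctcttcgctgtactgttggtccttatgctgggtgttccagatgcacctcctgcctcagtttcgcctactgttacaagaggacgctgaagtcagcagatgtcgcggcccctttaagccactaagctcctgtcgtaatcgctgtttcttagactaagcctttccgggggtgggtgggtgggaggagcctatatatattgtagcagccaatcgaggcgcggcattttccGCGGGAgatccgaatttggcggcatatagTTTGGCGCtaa
E2f3, chr13:29986014-29986313, minus strand: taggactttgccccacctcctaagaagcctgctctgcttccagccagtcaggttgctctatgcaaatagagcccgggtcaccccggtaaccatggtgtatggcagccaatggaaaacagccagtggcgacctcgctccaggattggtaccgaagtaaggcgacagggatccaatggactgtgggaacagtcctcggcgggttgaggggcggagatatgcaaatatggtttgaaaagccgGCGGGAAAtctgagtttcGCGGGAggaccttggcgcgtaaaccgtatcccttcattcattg
E2f6, chr12:16810715-16811014, plus strand: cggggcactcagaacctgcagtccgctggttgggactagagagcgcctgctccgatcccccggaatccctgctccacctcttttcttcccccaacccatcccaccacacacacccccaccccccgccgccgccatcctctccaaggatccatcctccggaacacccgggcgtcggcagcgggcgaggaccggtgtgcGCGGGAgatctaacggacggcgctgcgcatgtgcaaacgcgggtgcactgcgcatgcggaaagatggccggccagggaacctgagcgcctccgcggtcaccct
In the E2f2 window TTTGGCGC began at base 40 after the RefSeq start and GCGGGA at base 11. That whole window lies before the GENCODE start of E2f2, chr4:136172394. In E2f3 the minus strand match to TTTCCCGC overlapped a GCGGGA at base -11, and a further GCGGGA began at base 8. The E2f6 window had GCGGGA at base -53 and none of the 8-letter motifs, and the E2f1 window, which lies inside the gene, downstream of its GENCODE start, had neither. Of 32851 promoter windows of 300 bases, 2.26% held any of the 8-letter motifs and 19.98% held GCGGGA, so the shorter match is common. E2f2 and E2f3 each had another annotated start, whose windows held none of the 8-letter motifs, and the windows of E2f4 and E2f5 were not analysed here.

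In GENCODE on GRCm38, E2f1 (ENSMUSG00000027490) lies on chr2:154559407-154569892, E2f2 (ENSMUSG00000018983) on chr4:136172394-136196057 and E2f3 (ENSMUSG00000016477) on chr13:29906575-29986063. E2f4 (ENSMUSG00000014859) lies on chr8:105297663-105305370, E2f5 (ENSMUSG00000027552) on chr3:14578641-14606309 and E2f6 (ENSMUSG00000057469) on chr12:16810963-16839742. E2f1 and E2f3 are on the minus strand and the others on the plus strand. E2f3 overlaps the antisense gene Gm11365 and E2f5 overlaps 1810022K09Rik, so reads there are less certain, because no source used here says if counting took account of strand.

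All 6 members were detected in every library, but E2f2 at a much lower level than the others. Per kilobase of exon, the median normalized count over 68 libraries was 322 for E2f4 (290 to 379), 158 for E2f3 (136 to 182), 153 for E2f1 (97.3 to 191), 142 for E2f6 (118 to 166), 118 for E2f5 (93.6 to 200) and 11.9 for E2f2 (4.26 to 29.5). E2f4 was above E2f3 in 68 of 68 libraries and E2f5 above E2f2 in 68 of 68. The order in between was not fixed: E2f3 was above E2f1 in 41 libraries, E2f1 above E2f6 in 41, and E2f6 above E2f5 in 57. The pocket-protein partner and repressor E2f4 was thus the most abundant member per length, and the activator E2f2 the least.

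The members also differed in how steady they were. The SD of log2(value + 1) within groups, pooled and turned into a percent change, was 5.55% for E2f4, 7.12% for E2f3 and 7.89% for E2f6. It was 12.8% for E2f1, 16.6% for E2f5 and 19.6% for E2f2. E2f2 rested on 21 to 171 recovered reads per library, which gives a counting error of 13.04% of the mean, so counting made up a larger part of its spread than for E2f1, with 278 to 699 reads and 4.46%. E2f4 varied least, with a normalized count of 795.7 ± 44.2 (SD, n = 68).

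**Figure D1:**
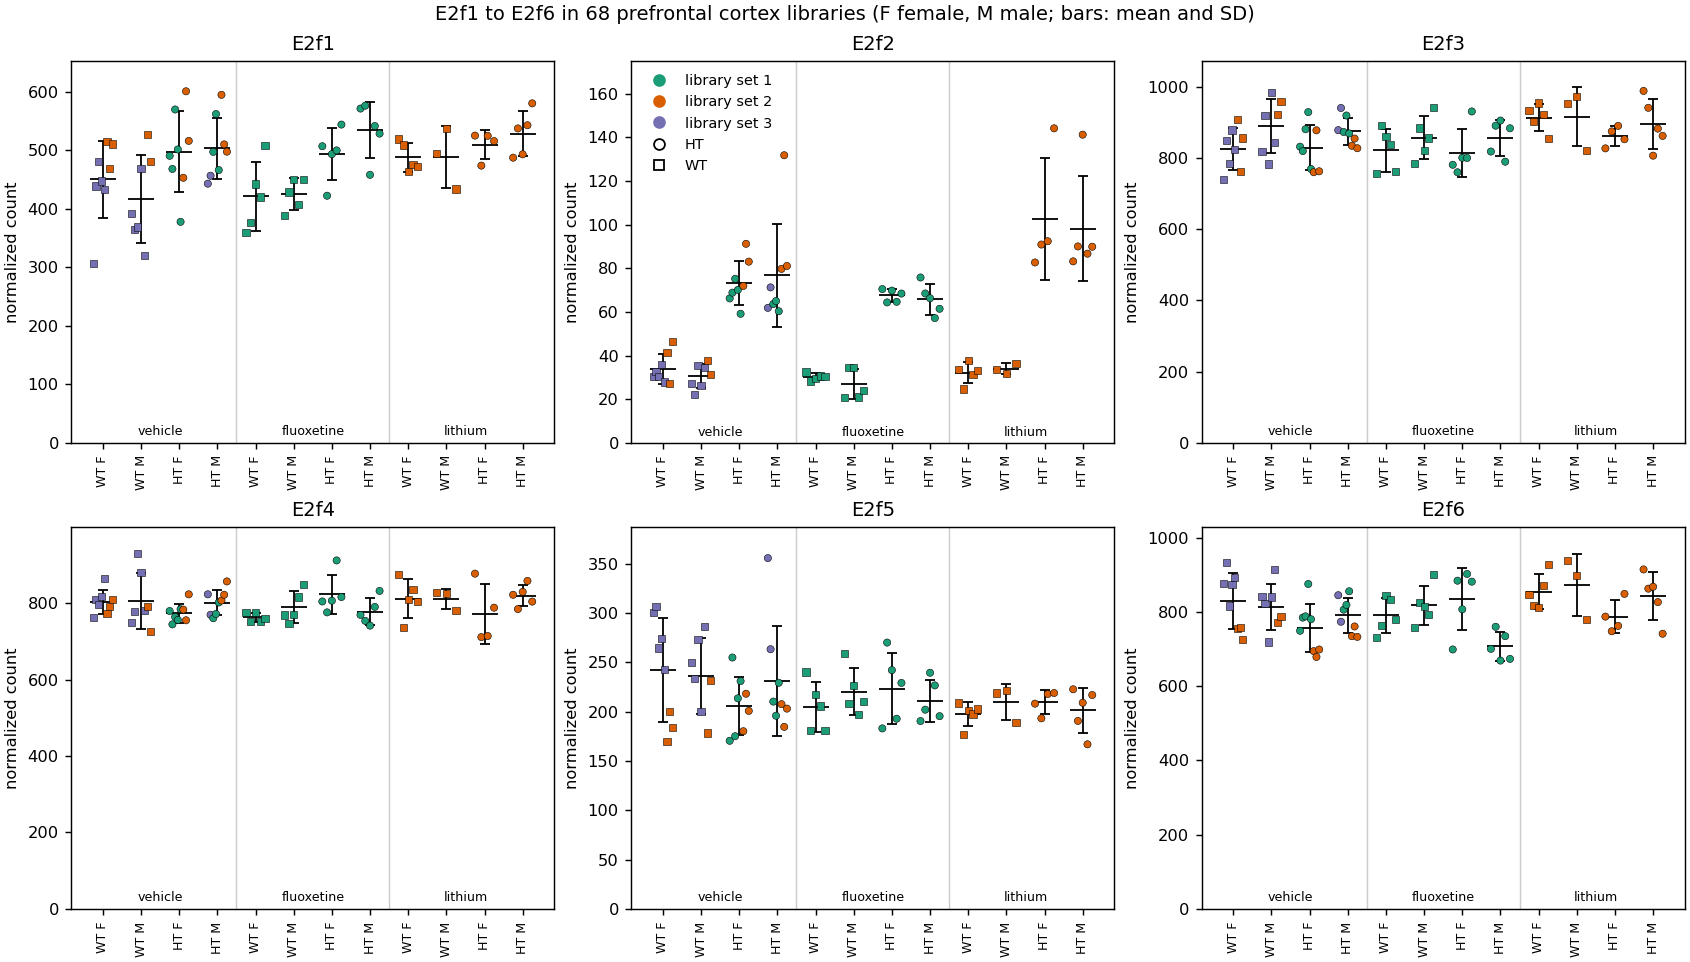
Normalized counts of E2f1 to E2f6 (y axes, starting at 0) in each of the 68 libraries by genotype, sex and drug (x axis). Circles are HT and squares WT libraries, colours give the library set, and bars give the mean and SD of each group. Every HT library lies above every WT library for E2f2, while the genotypes overlap for the other 5 genes.

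E2f2, an activator with a known part in the maturation of red blood cells and in lymphocyte division, had higher normalized counts in HT than in WT libraries under vehicle and both drugs. Under vehicle its normalized count was 75.0 ± 17.6 in HT (SD, n = 16; lowest 59.1, median 70.7, highest 131.8) and 32.4 ± 6.29 in WT (n = 15; 22.2, 31.3 and 46.3). Under fluoxetine it was 66.7 ± 5.17 in HT (n = 10; 57.2, 67.3 and 75.8) and 28.5 ± 5.09 in WT (n = 10; 20.8, 29.8 and 34.5). Under lithium it was 100.1 ± 24.4 in HT (n = 9; 82.7, 90.01 and 144.2) and 32.8 ± 3.97 in WT (n = 8; 24.7, 33.2 and 37.9). The lowest of the 35 HT libraries, at 57.2, was above the highest of the 33 WT libraries, at 46.3. Because the gene was chosen for this difference, the separation is a description.

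On the log2 scale, with 1 added to each value, HT exceeded WT in E2f2 by 1.186 under vehicle (SE 0.094), which is a fold of 2.27. The difference was 1.21 under fluoxetine and 1.55 under lithium. Both sexes contributed, with 1.10 in vehicle females and 1.27 in vehicle males. Within set 2 the vehicle difference was 1.27. These values hold the contrast that chose the gene and support nothing further. In bulk tissue, more cells that express a gene and more RNA per cell cannot be told apart.

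The same measure was known to separate the genotypes, but the choice of the gene did not use the drug comparisons. Under fluoxetine E2f2 passed the test in neither genotype, with a log2 difference from vehicle of -0.14 in HT (-0.35 to 0.07; limma, adjusted p = 0.61) and -0.17 in WT (-0.38 to 0.05; adjusted p = 0.36). The fluoxetine comparison called 1.22% of all genes in HT and 5.43% in WT, and none of the 6 members in either. In WT the fluoxetine and vehicle libraries shared no set, so drug and set cannot be told apart there. Over 12 alternative settings the E2f2 fluoxetine difference in HT ranged from -0.17 to 0.03, and none passed. Lithium gave a higher E2f2 than vehicle in HT, by 0.41 (0.19 to 0.63; adjusted p = 0.038), a comparison that called 1.52% of all genes (1.03% higher and 0.491% lower). In WT the lithium difference was 0.05 (-0.19 to 0.28; adjusted p = 0.78). The difference between the 2 genotype effects, lithium minus vehicle, was 0.37 over all libraries and 0.28 within set 2, given without a test because it holds the genotype contrast.

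The lithium difference in HT was smaller where libraries of 1 set were compared. HT lithium females had normalized counts of 82.7, 90.9, 92.4 and 144.2, and HT lithium males had 83.2, 90.01, 141.3, 86.7 and 89.9. The 6 HT vehicle libraries of the same set had 71.9 to 131.8 with a median of 82.1, overlapping them, while the 8 HT vehicle libraries of set 1 had 59.1 to 75.2. Within set 2 lithium minus vehicle was 0.16 (-0.10 to 0.41; adjusted p = 0.72), where 0.162% of all genes were called, and with 12 cell marker lists as covariates it was 0.22 (adjusted p = 0.44). Without the highest library, HT lithium female 4, the difference over all libraries was 0.32 (adjusted p = 0.12), and without HT lithium male 3 it was 0.34 (adjusted p = 0.094).

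**Figure D2:**
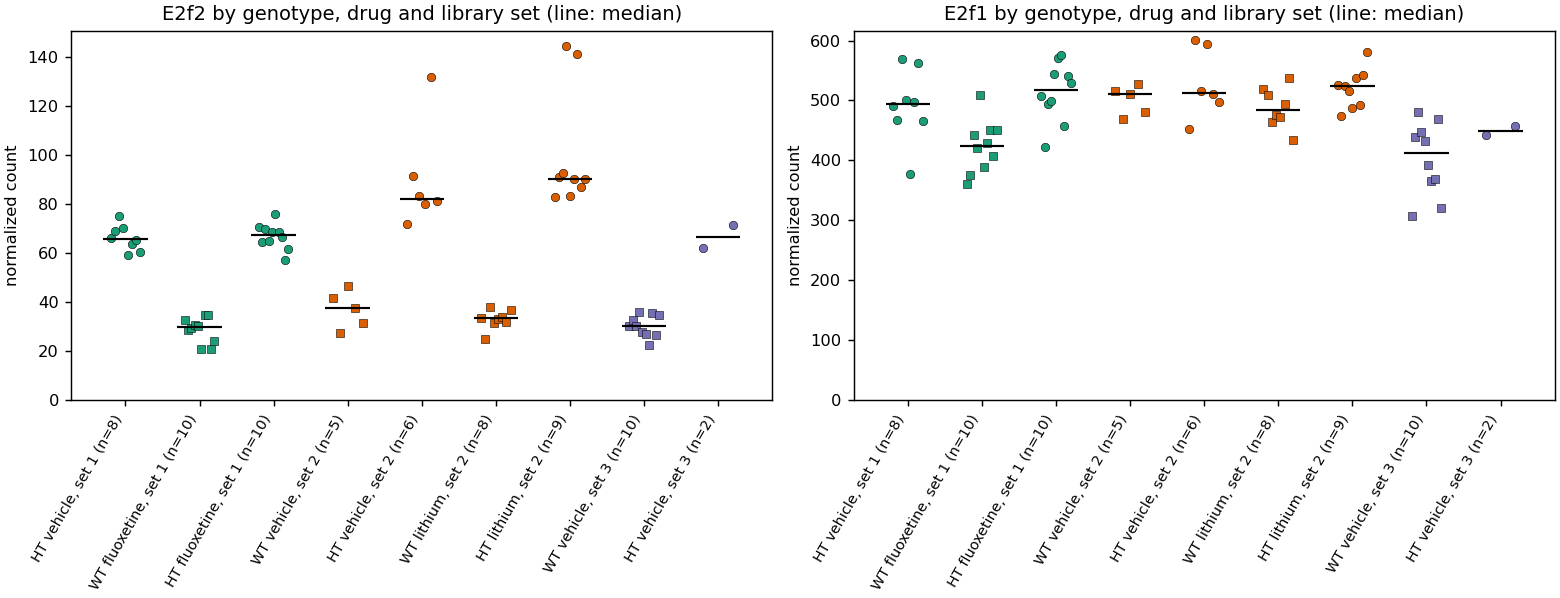
Normalized counts of E2f2 and E2f1 (y axes) in each library by genotype, drug and library set (x axis); lines are medians. HT libraries of E2f2 lie higher in set 2, with vehicle values of 71.9 to 131.8, than in set 1, with 59.1 to 75.2, and E2f1 is lower in the WT vehicle libraries of set 3 than in those of set 2.

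3 HT libraries stood apart in E2f2, at 144.2, 141.3 and 131.8, all in set 2. Among the 15 HT libraries of that set, HT lithium female 4 had the highest summed level of oligodendrocyte precursor markers (11660), and also of astrocyte, microglia, endothelium and red blood cell markers. It ranked 13 of 15 from the lowest in the striatal list and 10 in the myelin list. HT vehicle male 7 had the highest myelinating oligodendrocyte sum (212513) and striatal sum (13155, against a median of 4524). HT lithium male 3 was less extreme, ranking 13 of 15 from the lowest in the myelin list and 11 in the striatal list. It ranked 10 in the oligodendrocyte precursor list, 8 in the astrocyte and red blood cell lists, and 6 in the microglia and endothelium lists. HT vehicle male 7 ranked 12 in the precursor and red blood cell lists, 9 in endothelium, 7 in microglia and 4 in astrocytes. Over all 68 libraries the deviations of E2f2 from the group means went with the oligodendrocyte precursor list at Pearson r = 0.49. The red blood cell list had r = 0.45, the myelinating oligodendrocyte list 0.43 and the striatal list 0.37. Negative values were -0.34 for the olfactory bulb, -0.32 for forebrain neuroblasts and -0.22 for inhibitory neurons. The part of any of these cells in the E2f2 result was not tested.

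The genes on either side of E2f2 on chromosome 4 did not share its pattern. Rpl11, a ribosomal protein gene, and Id3, an inhibitor of helix-loop-helix factors, lie before it, and Asap3 and Tcea3 lie after it. Their vehicle log2 differences were 0.05, 0.12, 0.12 and -0.46, and none of the 4 passed the test in any genotype comparison, the lowest adjusted p being 0.14 for Tcea3 under vehicle.

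E2f1, the activator that is also known to promote apoptosis, was higher in HT by a smaller amount. Its normalized count under vehicle was 500.3 ± 59.3 in HT (SD, n = 16; lowest 377.7, median 497.5, highest 600.9) and 434.8 ± 69.7 in WT (n = 15; 306.8, 447.4 and 527.0). Under fluoxetine it was 514.2 ± 48.6 in HT (n = 10; 422.3, 517.8 and 576.3) and 423.3 ± 43.3 in WT (n = 10; 360.0, 424.5 and 508.7). Under lithium it was 520.1 ± 32.5 in HT (n = 9; 473.8, 524.8 and 580.3) and 488.2 ± 33.5 in WT (n = 8; 433.8, 484.8 and 537.7). The genotypes overlapped in each arm: 4 of 16 HT vehicle libraries, 5 of 10 with fluoxetine and 2 of 9 with lithium were above the highest WT library.

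HT exceeded WT in E2f1 by 0.21 on the log2 scale under vehicle (SE 0.061; 95% interval 0.09 to 0.34; limma, adjusted p = 0.014), a fold of 1.16. Of the 5 members that the choice did not rest on, E2f1 was the 1 called under vehicle, where 15% of all genes were called (7.74% higher and 7.21% lower). By sex the vehicle difference was 0.15 in females (adjusted p = 0.42; 1.75% of genes called) and 0.28 in males (adjusted p = 0.0495; 4.21% called). Under fluoxetine the difference was 0.28 (0.13 to 0.43; adjusted p = 0.030), with 1.98% of all genes called (1.33% higher and 0.653% lower) and E2f1 again the 1 called of these 5 members. Under lithium it was 0.09 (-0.08 to 0.26; adjusted p = 0.68), with 2.51% of genes called (1.48% higher and 1.03% lower) and none of the 5. The change of the E2f1 genotype effect between drugs was not past the threshold, at -0.13 for lithium minus vehicle (-0.34 to 0.08; adjusted p = 0.51) where 2.80% of all genes were called, and 0.07 for fluoxetine minus vehicle (adjusted p = 0.82).

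The vehicle difference in E2f1 depended on which libraries were compared. WT vehicle libraries had 402.0 ± 60.9 in set 3 (SD, n = 10) and 500.4 ± 24.8 in set 2 (n = 5), while HT vehicle libraries had 491.7 ± 60.2 in set 1 (n = 8) and 528.8 ± 57.9 in set 2 (n = 6). Within set 2 the genotype difference was 0.07 (-0.12 to 0.26; adjusted p = 0.999; 0.536% of all genes called), and with the set as a covariate it was 0.10 (adjusted p = 0.91). With only the vehicle groups in the fit it stayed at 0.21 but missed the threshold (adjusted p = 0.078). Under fluoxetine all libraries were in set 1, and there the difference within the set was 0.28 (adjusted p = 0.0091), where 2.85% of genes were called. With each library left out in turn the fluoxetine value ranged from 0.25 to 0.32 (adjusted p from 0.012 to 0.084) and missed the threshold in 7 of 68 cases.

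Lithium compared with vehicle in WT gave a higher E2f1, by 0.19 (0.03 to 0.34; adjusted p = 0.049), in a comparison that called 36.1% of all genes (18.6% higher and 17.5% lower; 37.7% with edgeR and 38.7% with DESeq2 on recovered reads). WT lithium libraries had 519.5, 509.0, 463.9, 475.6 and 472.4 in females and 494.1, 537.7 and 433.8 in males, and the 5 WT vehicle libraries of set 2 had 468.6 to 527.0, overlapping them. Within set 2 the difference was -0.04 (adjusted p = 0.93; 0.664% of all genes called). The call was lost in 43 of 68 cases with 1 library left out, and with edgeR and DESeq2 (adjusted p = 0.056 in both). In HT the lithium difference was 0.06 (adjusted p = 0.70). No fluoxetine comparison of E2f1 passed, at 0.04 in HT (adjusted p = 0.85) and -0.02 in WT (adjusted p = 0.88).

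E2f1 varied between libraries with some lists of cell markers, in the opposite or the same direction. Its deviations from the group means had Pearson r = -0.78 with the forebrain neuroblast list and -0.72 with the olfactory bulb list. With the cortical excitatory neuron list r was 0.55. Lists that are no cell markers had such values too, at -0.72 for both pocket proteins and PRC1.6 subunits, while the G2 and mitosis list had 0.08. These values are over 68 libraries, whose list and E2f1 values come from the same RNA and depth. The neuroblast sum had a median of 5161 in WT vehicle (2575 to 21134), 5362 in HT vehicle (2804 to 17073) and 3045 in WT lithium libraries (2268 to 5909). With 12 marker lists as covariates the vehicle genotype difference in E2f1 was 0.099 (adjusted p = 0.40), and their part in the result was not tested further.

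E2f3, the third activator, did not separate the genotypes. Its normalized count was 852.2 ± 56.0 in HT and 856.3 ± 72.4 in WT under vehicle, 836.5 ± 60.4 and 840.0 ± 59.6 under fluoxetine, and 881.2 ± 55.8 and 914.8 ± 52.9 under lithium (SD). The vehicle log2 difference between genotypes was -0.01 in the fit over all libraries (-0.08 to 0.06; limma, adjusted p = 0.90). Over 12 alternative settings this difference ranged from -0.12 to -0.005, and none passed. In WT, lithium minus vehicle was 0.09 (0.00 to 0.19; adjusted p = 0.094).

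E2f4, a repressor that acts with Rbl2 and the MuvB core, was the steadiest member. It had 787.5 ± 31.6 in HT and 804.0 ± 52.8 in WT under vehicle (SD), with a genotype difference of -0.03 (-0.09 to 0.03; adjusted p = 0.55). The genotype differences under fluoxetine (0.04) and lithium (-0.03) and the lithium differences (0.01 in both genotypes) were as small, and none passed. Over 12 alternative settings the vehicle genotype difference of E2f4 ranged from -0.03 to 0.06, and none passed.

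E2f5, the other pocket-protein repressor, varied with the library set more than with genotype. Under vehicle it had 218.4 ± 45.1 in HT (SD; lowest 170.4, median 208.9, highest 355.8) and 239.6 ± 45.0 in WT (169.6, 242.7 and 306.5). The genotype difference was -0.13 (-0.29 to 0.02; adjusted p = 0.24). Over 12 alternative settings it ranged from -0.13 to 0.12, and none passed. WT vehicle libraries had 263.1 ± 32.4 in set 3 and 192.6 ± 24.4 in set 2. Lithium minus vehicle in WT was -0.21 over all libraries (-0.41 to -0.02; adjusted p = 0.079) and 0.07 within set 2 (adjusted p = 0.85), a turn of direction between 2 values that both missed the threshold.

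E2f6, the Polycomb member, had a lower mean in HT than in WT in each arm and passed the test in none. Its normalized count was 773.9 ± 58.1 in HT and 822.4 ± 67.9 in WT under vehicle (SD), 771.5 ± 91.4 and 804.6 ± 49.4 under fluoxetine, and 818.0 ± 60.9 and 861.7 ± 57.9 under lithium. The log2 differences were -0.09 (-0.17 to -0.01; adjusted p = 0.13), -0.07 (-0.17 to 0.03; adjusted p = 0.63) and -0.08 (-0.19 to 0.02; adjusted p = 0.49). The genes beside E2f6, Ntsr2 and Greb1 before it and Rock2 and Pqlc3 after it, passed in no genotype comparison.

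E2f6 under lithium depended on the set in the other direction from E2f1. Within set 2 vehicle libraries had 717.0 ± 31.0 in HT (SD, n = 6; 678.9 to 761.1) and 760.2 ± 22.6 in WT (n = 5; 727.0 to 788.0), below most lithium libraries. Lithium minus vehicle within set 2 was 0.18 in both genotypes, with intervals of 0.08 to 0.28 in HT (adjusted p = 0.12) and 0.06 to 0.29 in WT (adjusted p = 0.13). Over all libraries it was 0.07 in each (adjusted p = 0.41 and 0.25). None of these values passed the threshold.

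**Figure D3:**
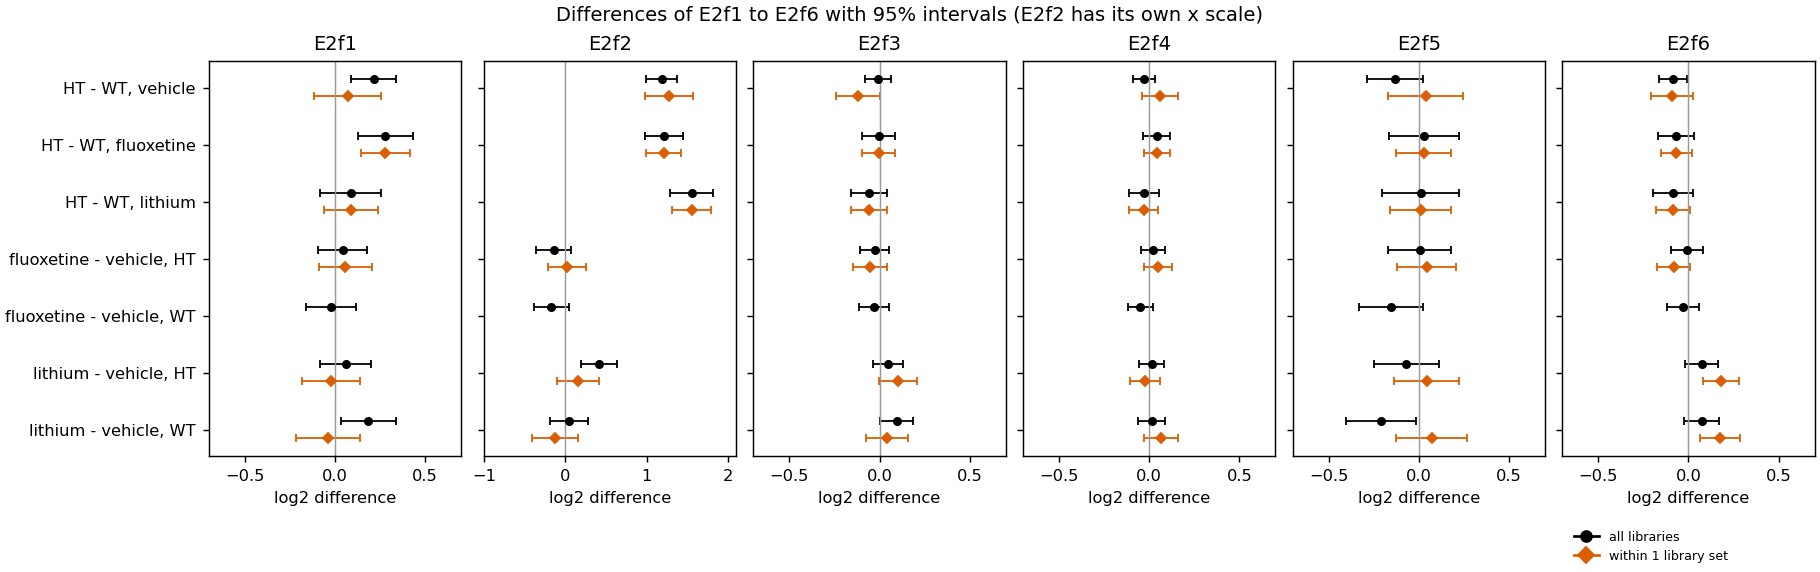
Log2 differences of E2f1 to E2f6 (x axes; E2f2 has its own scale) in 7 comparisons (y axis), with 95% intervals, which for E2f2 between genotypes show spread only and are no test. Black circles are fits over all libraries and orange diamonds fits within 1 library set, which do not exist for fluoxetine in WT. E2f1 falls from 0.21 to 0.07 in the vehicle genotype comparison within set 2, while E2f2 stays above 1 in all 3 genotype comparisons.

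No member passed in the comparison of male with female vehicle libraries, where 0.167% of all genes were called, and the largest difference of the 6 was 0.09 for E2f3 (adjusted p = 0.17). E2f7 and E2f8, repressors that work without a Dp partner, passed in no comparison: the E2f7 vehicle genotype difference was -0.03 (adjusted p = 0.92) and the E2f8 differences were -0.18 under vehicle (adjusted p = 0.38) and -0.43 under fluoxetine (adjusted p = 0.23). Both were rare, at 17.7 ± 5.27 and 33.1 ± 11.8 normalized counts in WT vehicle libraries (SD, n = 15).

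Of the 3 pocket protein genes, 2 were called lower in HT under vehicle, where 7.21% of all genes were called lower: Rb1 by -0.24 (adjusted p = 0.0076) and Rbl2 by -0.09 (adjusted p = 0.014), with a list median of -0.21 beside -0.01 over all genes. Under fluoxetine, where E2f1 was also called higher, limma, edgeR and DESeq2 called 0 of the 3, and 1 had an unadjusted p under 0.05. In WT, lithium gave 3 of 3 lower, where 17.5% of all genes were called lower: Rb1 -0.35 (adjusted p = 0.00054), Rbl1 -0.55 (adjusted p = 0.00078) and Rbl2 -0.17 (adjusted p = 9.62e-05). Rb1 had a normalized count of 1149 ± 226 in WT vehicle, 960.8 ± 84.3 in HT vehicle and 895.8 ± 77.6 in WT lithium libraries (SD). Within set 2 none of the 3 was called in either comparison. Of the dimer partners, Tfdp2 was called lower by lithium in WT, at -0.15 (adjusted p = 0.0028), 1 of 2 beside 36.1% of all genes, and no other call was made in the genotype or drug comparisons.

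Of the 14 tested G1 cyclins, kinases and inhibitors, 2 were called higher and 3 lower in HT under vehicle, beside 7.74% and 7.21% of all genes. They were the inhibitor Cdkn1c (0.25, adjusted p = 0.0046), the kinase Cdk6 (-0.26, adjusted p = 0.0056), the cyclin Ccne1 (0.19, adjusted p = 0.012), the inhibitor Cdkn1b (-0.21) and the cyclin Ccne2 (-0.23). Under fluoxetine and lithium limma, edgeR and DESeq2 called 0, with 2 at an unadjusted p under 0.05 in each, and limma called 0 within set 2. In WT, lithium gave 3 higher and 4 lower, beside 18.6% and 17.5% of all genes, and edgeR and DESeq2 called 8 and 9 of the 14. The smallest p was that of Ccnd1, the cyclin D1 gene, at 0.29 (adjusted p = 2.18e-05; 0.25 within set 2, adjusted p = 0.043). Ccnd1 had 1420 ± 117 in WT vehicle (SD, n = 15) and 1739 ± 98.1 in WT lithium (n = 8), against 1505 ± 101 and 1540 ± 106 in HT. The Ccnd1 genotype effect differed between lithium and vehicle by -0.26 (limma, adjusted p = 0.035), where 2.80% of all genes were called. That of Rbl2 differed by 0.17 (adjusted p = 0.036). Within set 2 these were -0.24 (adjusted p = 0.42) and 0.10 (adjusted p = 0.63), and neither was called. In HT lithium gave 1 of 14 lower, Cdkn1c at -0.34 (limma, adjusted p = 0.0094), beside 0.491% of all genes, while edgeR and DESeq2 called 1 and 2. That lithium comparison called 1.52% of all genes over all libraries and 0.162% within set 2.

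Genes that E2f proteins are known to drive for DNA replication did not move as a group in HT. Of 32 tested, 3 were called higher under vehicle (Mcm6 0.34, adjusted p = 7.96e-05, Fen1 0.16 and Pcna 0.11) and 1 lower (Brca1 -0.32), and none was called within set 2. Under fluoxetine and lithium limma, edgeR and DESeq2 called 0 of the 32, and 2 and 1 of them had an unadjusted p under 0.05. The list medians were 0.05, -0.00 and 0.00, beside all-gene medians of -0.01, -0.00 and 0.00. Mcm6, a subunit of the replicative helicase, had 238.4 ± 24.7 in HT and 190.3 ± 29.3 in WT vehicle libraries (SD). The 4 calls of 32 under vehicle are a share near the 15% of all genes called there.

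The 16 genes of G2 and mitosis, which the MuvB core and Foxm1 control, gave 0 calls by limma and edgeR between genotypes or under either drug. All-gene shares called by limma were 15%, 1.98% and 2.51% between genotypes under vehicle, fluoxetine and lithium. They were 1.22% in HT and 5.43% in WT under fluoxetine, and 1.52% and 36.1% under lithium. In each genotype comparison 2 of the 16 had an unadjusted p under 0.05, and in HT under lithium 4 did and DESeq2 called 1, Cdc20, named after its value was seen. Under lithium all 16 lay above 0 in HT against WT, from 0.02 to 0.46. Their median was 0.20, beside 0.002 over all genes. Under vehicle 7 of 16 and under fluoxetine 3 of 16 lay above 0. Mki67, the marker of dividing cells, had 136.4 ± 41.8 in HT and 102.1 ± 25.9 in WT under lithium (SD; log2 difference 0.40, adjusted p = 0.25). Deviations of E2f2 from the group means went with this list at r = 0.41. The MuvB core gave 1 call of 4 tested in lithium in WT (Lin37, 0.19, adjusted p = 0.0044), beside 36.1% of all genes, while edgeR and DESeq2 called 2, and none between genotypes.

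None of the 12 PRC1.6 subunits was called between genotypes under any drug by limma, edgeR or DESeq2 (5, 0 and 2 had an unadjusted p under 0.05 under vehicle, fluoxetine and lithium), with list medians of -0.07 under vehicle, -0.00 under fluoxetine and -0.03 under lithium. In WT, lithium gave 1 higher (Wdr5 0.15, adjusted p = 0.0013) and 3 lower (Mga -0.23, Hdac1 -0.27 and Hdac2 -0.20), and none within set 2. These 4 of 12 are a share near the 36.1% of all genes called there. Of 6 germ line genes that E2f6 is known to bind, 1 was tested: Stag3, a meiotic cohesin subunit, was lower in HT under vehicle by -0.50 (adjusted p = 0.0012) and at -0.31 within set 2 (adjusted p = 0.96). Its normalized count was 45.2 ± 11.8 in HT and 65.0 ± 18.3 in WT vehicle libraries (SD), and 72.1 ± 18.1 and 50.7 ± 7.55 in WT vehicle libraries of set 3 and set 2. The other 5 were not analysed here.

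Of 10 further germ line and meiotic genes tested, 4 were called higher and 2 lower in HT under vehicle, beside 7.74% and 7.21% of all genes. Sycp2, part of the synaptonemal complex, was higher by 1.29 and Rec8, a meiotic cohesin subunit, by 1.28, with Tdrd1 at 0.93 and Sycp3 at 0.94. The 2 lower were Tdrkh at -0.09 and Zcwpw1 at -0.19. Sycp2 had 64.0 ± 24.2 in HT and 24.6 ± 4.83 in WT vehicle libraries (SD). Limma called 3 of the 10 between genotypes under fluoxetine and 3 under lithium, beside 1.98% and 2.51% of all genes, and DESeq2 called 4 in each. Sycp2 and Rec8 were called under fluoxetine (1.03 and 1.28) and lithium (1.61 and 1.29) and within set 2 (1.71 and 1.52). This list includes genes known to be high in these HT libraries, so its counts and the calls of its genes are a description and not independent evidence.

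**Figure D4:**
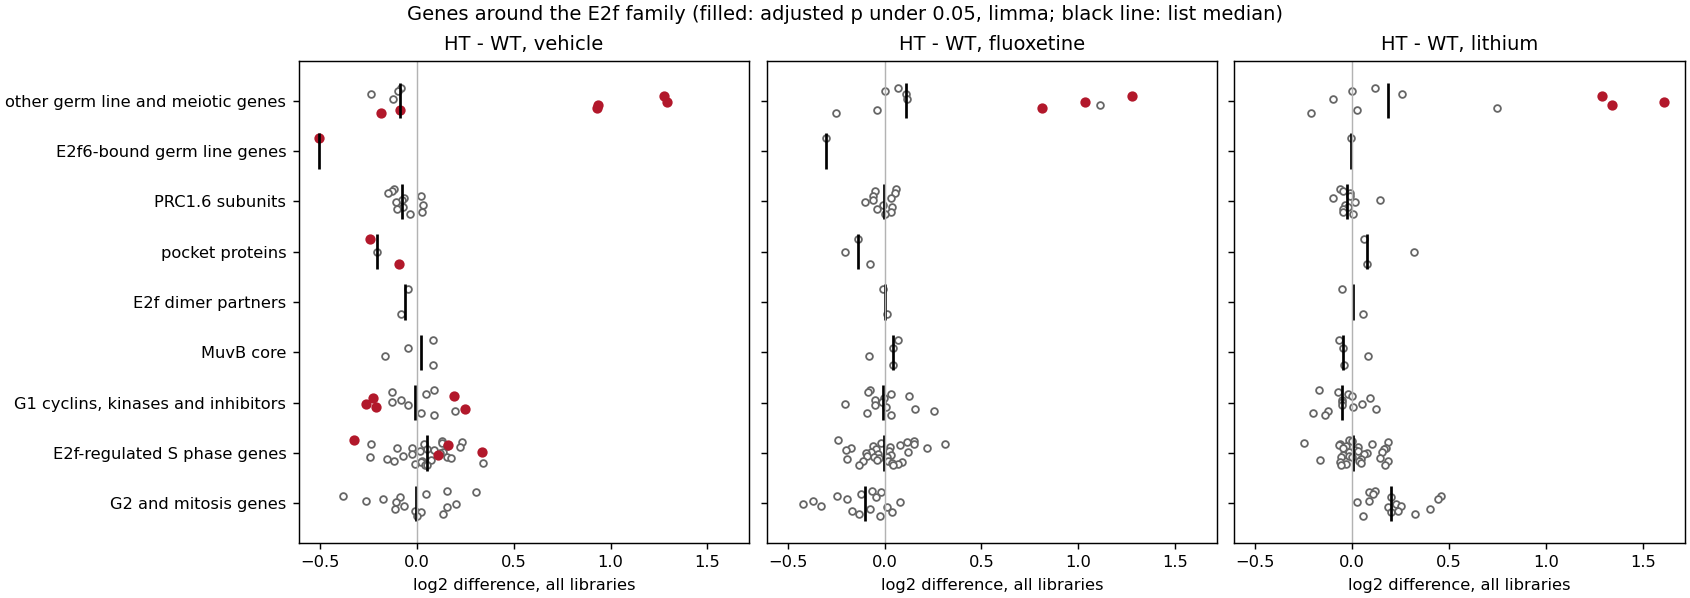
Log2 differences between HT and WT (x axes) for the tested genes of 9 lists (y axis) under vehicle, fluoxetine and lithium. Filled red points passed at adjusted p under 0.05, which for the list of other germ line genes is a description, and black lines are list medians. The replication genes centre on 0.05, -0.00 and 0.00, and the mitosis genes on 0.20 under lithium.

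The named genes most like each member over the 68 libraries, with predicted genes passed over (1, for E2f3), are given as a description, since they share libraries and depth. For E2f2 they were Col6a2, Best1 and Man2b2, with Pearson r of 0.95, 0.92 and 0.89, which dropped to 0.59, 0.41 and 0.33 once group means were removed. For E2f1 they were Rasal1 (0.87), Crb2 (0.86) and Fbxo31 (0.83), and these stayed at 0.87, 0.80 and 0.84 without group means. E2f6 was most like Atf4 (0.71), Nr4a3 (0.67) and Kmt5a (0.66), E2f5 like Pnrc2 (0.74), Tmed2 (0.74) and Dek (0.73), E2f4 like Hmga1 (0.66), Ube2m (0.66) and Sf3a2 (0.65), and E2f3 like Nuak1 (0.70), Nceh1 (0.69) and Acsl5 (0.69). Between members, the deviations of E2f1 and E2f5 went in opposite directions (r = -0.55), and those of E2f1 and E2f3 (0.38) and of E2f5 and E2f6 (0.39) together.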

How the data were processed

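Poly(A) RNA-seq libraries (TruSeq stranded kit) of 68 prefrontal cortex samples were analysed. The deposited values are gene counts that the authors divided by 1 size factor per library, a normalized signal, and all were whole multiples of 1 read within 0.01. Per the submitters' processing notes the tools were Salmon 0.11.2, R 3.6.0 and DESeq2 1.19.11 with GRCm38, in roles not stated. No source used here states the annotation release, the low-count filter or the use of strand. Of 18088 genes, 18077 matched GENCODE vM21.

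The test for these normalized values was limma 3.58.1 (R 4.3.3; trend and robust) on log2(value + 1), so folds of low genes are understated. A count test was planned only for raw counts. The fit took 12 groups, contrasts averaged over sexes, and 17922 genes with a mean of at least 5. Benjamini-Hochberg adjusted p under 0.05 was called. edgeR 4.0.16 and DESeq2 1.42.0 on recovered reads, other pseudocounts and filters, the library sets (average linkage of pseudogene levels), marker covariates and each library left out were alternatives. The method was tested on simulated data. The members and lists were chosen with earlier results of these data known. Named genes were all members, E2f7, E2f8 and Adnp, up to 4 genes per list by smallest p, the 3 most correlated genes per member (predicted genes passed over) and 2 neighbours on each side of E2f2 and E2f6. Replicate numbers were not used as pairs, since 12 of 32 same-numbered pairs had a correlation over 0.1 (-0.24 to 0.44). Scripts used Python 3.11.15, scipy 1.17.1, pandas 2.3.3 and numpy 2.4.6.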

Additional observations from a re-analysis of the deposited data

Results flagged for a closer look

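In 6 of 66 combinations of a member and a group of 4 to 8 libraries, the highest or lowest library stood apart from the rest of its group by Dixon's gap test, which chance gives in about 1 in 20. For E2f2 these were HT lithium female 4 at a normalized count of 144.2 (next highest 92.4), HT lithium male 3 at 141.3 (next 90.01) and HT vehicle male 7 at 131.8 (next 81.1). For E2f1 it was WT vehicle female 1 at 306.8 (next lowest 432.4). For E2f3 it was HT fluoxetine female 5 at 931.4 (next highest 801.2), and for E2f5 HT vehicle male 1 at 355.8 (next highest 263.3).

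For 2 partner genes the genotype effect differed between lithium and vehicle by a limma interaction term, which called 2.80% of all genes. They were 1 of 3 pocket protein genes and 1 of 14 G1 genes. The lists of 32 replication, 16 mitosis and 12 PRC1.6 genes gave no call. The difference of log2 effects, lithium minus vehicle, was 0.17 for the pocket protein gene Rbl2 (adjusted p = 0.036) and -0.26 for the cyclin gene Ccnd1 (adjusted p = 0.035). Within set 2 the values were 0.10 (adjusted p = 0.63) and -0.24 (adjusted p = 0.42).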

How the results depend on the processing

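Of 83 results, the 6 on member levels were recomputed under 1 alternative, and the others under 12 (11 for fluoxetine in WT and for fluoxetine minus vehicle, which have no value within 1 set) and with each of 68 libraries left out in turn. The count of tested members called in the vehicle genotype comparison went from 1 to 0, and E2f1 lost its call, with only the groups compared in the fit (0.21, adjusted p = 0.078), with the library set as a covariate (0.10, adjusted p = 0.91), within set 2 (0.072, adjusted p = 0.999) and with marker scores as covariates (0.099, adjusted p = 0.40). With these 4 settings the count for lithium in HT also went from 1 to 0 and E2f2 to 0.41 (adjusted p = 0.057), 0.18 (adjusted p = 0.70), 0.16 (adjusted p = 0.72) and 0.22 (adjusted p = 0.44). For lithium in WT the count went from 1 to 0 with these 4 and with edgeR and DESeq2 on recovered reads. E2f1 was 0.19 (adjusted p = 0.12) with only the groups compared, and 0.175 (adjusted p = 0.056) with edgeR and with DESeq2. It reversed to -0.017 with the set as a covariate, -0.039 within set 2 and -0.0355 with marker scores. With the replicate number as a block the lithium count in WT was 2, with E2f5 at -0.33 (adjusted p = 0.0020), and the fluoxetine count in WT went from 0 to 1, with E2f5 at -0.26 (adjusted p = 0.019).

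With libraries left out in turn, E2f1 under vehicle stayed called in 68 of 68 (0.18 to 0.24). Under fluoxetine E2f1 ranged from 0.25 to 0.32 and the member count from 0 to 1, lost without HT fluoxetine female 4 or 5, HT fluoxetine male 1 or 2, WT fluoxetine female 1 or 2, or WT fluoxetine male 1. E2f2 for lithium in HT ranged from 0.32 to 0.47 and was lost in 12 cases. E2f1 for lithium in WT ranged from 0.15 to 0.23, was lost in 43 cases, and the count ranged from 0 to 2. E2f2 rests on 21 to 171 reads, so its small drug differences are the least certain.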

Other observations

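E2f6 in HT fluoxetine libraries had normalized counts of 699.1, 884.6, 807.4, 902.7 and 881.9 in females and 700.8, 760.2, 669.2, 735.0 and 673.7 in males. In set 3, where 2 HT and 5 WT vehicle males were together, E2f1 was higher in HT by a log2 difference of 0.24 (limma, adjusted p = 0.35) and E2f5 by 0.31 (adjusted p = 0.28).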
